A study of Mus musculus with 6 samples.

Results

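Genes of cholesterol and fatty acid synthesis were examined in bulk RNA-seq libraries of group 2 innate lymphoid cells (ILC2s), antigen-receptor-free lymphocytes known for type 2 cytokines. The 36 genes were listed by name for their role, at a time when earlier results of these data were known, and all 36 were among the 17546 genes in the table; 35 passed the filter on low counts and were tested. ILC2s came from lungs of BALB/c mice given 3 intranasal doses of 1 µg IL-33, and were kept in culture with 10 ng/mL each of IL-2 and IL-7, steps that both groups share. For 24 h, 3 libraries (DMSO 1 to 3) were exposed to DMSO, the solvent, and 3 (Yoda1 4 to 6) to 10 µM Yoda1, a small molecule that opens the mechanosensitive calcium-permeable channel Piezo1. Elsewhere in the record the control is called PBS; the group names here follow the sample labels. The comparison asks how these transcripts differ when the channel is opened chemically. The sources used here do not give the age and sex of the mice or the sorting gates. Since no label ties a library to its own mouse or culture, p-values measure only the spread between these libraries, which may be technical. DMSO 2 and DMSO 3 share a library number in the labels, as do Yoda1 4 and Yoda1 5, and may not be independent samples.

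Total counts ran from 14214048 to 31627519 per library. The ILC2 genes Gata3, Il1rl1 and Il5 ran from 545 to 8258 CPM over all libraries (CPM, a gene's counts scaled to a common library total), while Icos was at 850 to 875 CPM of all counts with DMSO and 434 to 509 with Yoda1, Il7r at 137 to 169 and 92.8 to 112, and Thy1, a surface marker often used for these cells, was at 0.115 to 2.89 CPM of all counts. Libraries DMSO 2 and DMSO 3 carried the club cell transcript Scgb1a1 at 301.7 and 293 CPM of all counts, while it was 0 in DMSO 1, Yoda1 4 and Yoda1 5 and 0.0585 in Yoda1 6. Comparisons were therefore also made with DMSO 1 as the sole control. DMSO 1 was itself not free of lung epithelial transcripts. It carried the alveolar type II cell transcript Sftpc at 15.3 CPM of all counts, against at most 0.569 in any other library. The cells were a bulk population, in which fewer cells of a type and less RNA per cell cannot be told apart.

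Cells make cholesterol from acetyl-CoA through mevalonate and squalene, in a chain of enzymes of the cytosol and endoplasmic reticulum, and make fatty acids from malonyl-CoA. Both chains are switched on by SREBP transcription factors, which stay in the endoplasmic reticulum with their escort SCAP, held by INSIG proteins, while sterol is plentiful, and which often act together with the factor NF-Y. Excess sterol acts the other way, through the nuclear receptors LXR alpha and LXR beta, which raise the sterol exporters ABCA1 and ABCG1. Dividing lymphocytes draw on both chains to build membrane.

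None of the 35 tested genes passed the test over all genes. Levels are CPM scaled by the TMM method over the tested genes unless said otherwise, as mean ± SD (n = 3 libraries per group); a change is the log2 ratio of Yoda1 to DMSO, given with its standard error (SE). At a Benjamini-Hochberg adjusted p under 0.05 from edgeR's quasi-likelihood fit, 0 of 35 were higher and 0 were lower, while 0.57% of the 13325 genes tested were higher and 0.923% were lower. At an unadjusted p under 0.05 in edgeR, 0 were higher and 4 were lower (Scd2, Insig1, Fdps and Acat2), where 7.39% of all tested genes were higher and 7.11% lower (14.5% in all). Limma voom called 0 higher and 0 lower, where it called 0.908% and 1.34% of all tested genes. DESeq2 called 0 higher and 1 lower, where it called 3.03% and 3.53% of the genes it tested; that gene was the desaturase gene Scd2. The 2 groups of libraries did not overlap for 8 of 35 genes, or 22.9%, close to the 22.6% of all tested genes; 6 were lower with Yoda1 (Scd2, Scd1, Insig1, Srebf2, Fdps and Tm7sf2) and 2 higher (Mvd and Nr1h2). The median log2 change of the 35 genes was -0.14, with 24 negative and 11 positive. Over all tested genes the median was 0.01, with 49% negative and 51% positive.

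The intervals bound the difference between the groups only as far as the spread between these libraries measures it. The 95% interval of the change lay within 2-fold either way for 27 of 35 genes, or 77.1%. Of all tested genes 51.5% had such an interval. Intervals are wider at low counts, and no comparison with genes of like count level was made. The 8 genes whose interval reached past 2-fold on at least 1 side were Tm7sf2, Stard4, Acaca, Scd1, Scd2, Elovl6, Fads2 and Mylip. For the other 27 a change of 2-fold either way lay outside the interval. How much smaller a change stayed inside differed by gene. The interval ran from -0.36 to 0.13 for Ebp and from -0.68 to 0.88 for Fasn. Of all 35 intervals, those of Scd2, Fdps, Insig1 and Acat2 held only negative changes, and none held only positive ones.

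**Figure D1:**
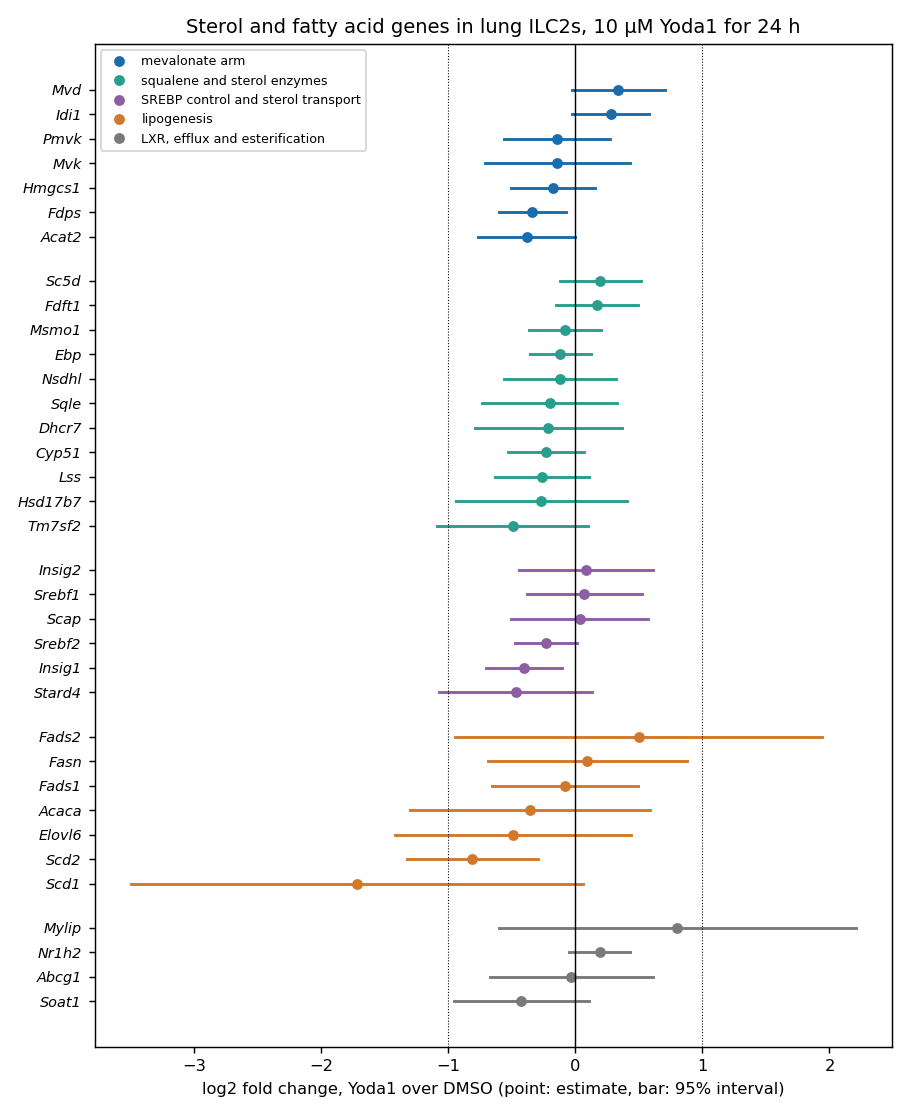
Log2 fold change of Yoda1 over DMSO for the 35 tested genes, by role. Points are edgeR estimates and bars 95% intervals; dotted lines mark a 2-fold change either way. Most estimates sit between -0.5 and 0.5, no gene passed the test over all genes, and Scd1, Fads2 and Mylip have the widest intervals.

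The genes were listed by role and not by promoter sequence. Both chains are ones that SREBP switches on, so the shares below describe the list and test nothing. RefSeq promoter windows on GRCm38.p6 were at hand for 28 of the 36 genes, and the 250 bases before each start site were searched on both strands. The NF-Y box, searched as CCAAT, was in at least 1 window of 21 of 28 genes, or 75.0%. It was in 37.5% of all 27025 genes with a window, tested here or not. The sterol regulatory element core, searched as TCACNCCAC, was in the window of 1 gene, Hmgcs1, and in 1.22% of all genes; SREBP binds variants of this core that the search does not find. The E-box CACGTG, which SREBP-1 can also bind, was in windows of 6 genes (Abca1, Dhcr7, Hsd17b7, Insig1, Sc5d and Scap), or 21.4%, against 6.86% of all genes. A match is a run of letters and does not show that a factor binds there. RefSeq and GENCODE place some starts differently, so the stretches shown here are the 150 bases before whichever of the RefSeq start and the outer end of the GENCODE gene lies further upstream. They are given for Hmgcs1, which holds the sterol element, and, for each role, for the gene with the smallest p that holds an NF-Y box in such a stretch. Idi1 and Tm7sf2 have smaller p but their windows do not reach 150 bases beyond the GENCODE end, and the NF-Y box of Cyp51 lies inside the GENCODE gene. Insig1 has a smaller p than Srebf2, but its NF-Y box, 216 bases before the RefSeq start, lies upstream of such a stretch. All are written 5′ to 3′ on the gene's strand, with capitals for matches to any of the 3 motifs (ATTGG is CCAAT read on the other strand). They lie at chr13:119690201-119690350 (+ strand), chr8:122443423-122443572 (- strand), chr10:76531438-76531587 (+ strand), chr15:82147031-82147180 (+ strand), chr11:120824548-120824697 (- strand) and chr1:156474332-156474481 (- strand).
Hmgcs1: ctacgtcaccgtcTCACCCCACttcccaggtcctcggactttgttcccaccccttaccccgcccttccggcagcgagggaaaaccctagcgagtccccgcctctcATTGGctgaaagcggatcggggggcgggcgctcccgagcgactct
Mvd: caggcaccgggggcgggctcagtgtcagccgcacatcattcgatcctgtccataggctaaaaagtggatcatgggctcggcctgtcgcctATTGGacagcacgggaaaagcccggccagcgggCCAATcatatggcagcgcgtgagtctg
Lss: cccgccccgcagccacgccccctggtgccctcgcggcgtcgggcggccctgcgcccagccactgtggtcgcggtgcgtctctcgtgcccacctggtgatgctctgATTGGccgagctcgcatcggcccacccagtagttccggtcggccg
Srebf2: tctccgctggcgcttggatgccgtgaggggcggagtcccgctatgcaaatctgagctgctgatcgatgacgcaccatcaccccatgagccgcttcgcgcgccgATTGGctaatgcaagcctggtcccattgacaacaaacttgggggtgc
Fasn: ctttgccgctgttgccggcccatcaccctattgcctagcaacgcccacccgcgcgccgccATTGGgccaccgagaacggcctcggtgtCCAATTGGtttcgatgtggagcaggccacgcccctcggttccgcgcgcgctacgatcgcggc
Soat1: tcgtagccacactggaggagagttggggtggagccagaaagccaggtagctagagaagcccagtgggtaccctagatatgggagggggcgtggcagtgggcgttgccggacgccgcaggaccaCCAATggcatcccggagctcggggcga
The stretch of Hmgcs1 holds both a sterol element and an NF-Y box. That of Fasn holds 3 NF-Y boxes, of which a pair overlaps in the run CCAATTGG, and that of Mvd holds 2. The levels of these 6 genes did not move one way with Yoda1: the log2 changes, all short of the threshold, were 0.34 for Mvd, 0.10 for Fasn, -0.17 for Hmgcs1, -0.23 for Srebf2, -0.26 for Lss and -0.42 for Soat1.

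The mevalonate arm makes farnesyl diphosphate, the branch point between sterols and prenyl groups. None of its 7 genes passed; 2 were lower at an unadjusted p under 0.05 in edgeR, 5 changes were negative and 2 positive, and the median was -0.14. Fdps, which makes farnesyl diphosphate and lies on chromosome 3 at 89093588 to 89101959 (GRCm38), was at 293, 312 and 306 CPM in DMSO 1, 2 and 3. It was at 205, 251 and 266 CPM in Yoda1 4, 5 and 6. All Yoda1 libraries lay under all DMSO libraries, and the change was -0.34 (SE 0.12, Benjamini-Hochberg adjusted p = 0.224 by edgeR's quasi-likelihood test). Acat2, the cytosolic thiolase that joins acetyl-CoA units at the start of the arm, read 97.2, 137 and 106 CPM across DMSO 1 to 3, against 86.5, 98.3 and 75.8 CPM across Yoda1 4 to 6. Its groups overlapped through DMSO 1 and Yoda1 5, and its change was -0.38 (SE 0.17, adjusted p = 0.342 by edgeR's quasi-likelihood test).

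The isomerase and decarboxylase genes that come just before Fdps in the arm lay the other way. Idi1, which interconverts the 5-carbon building blocks, read 129, 117 and 143 CPM across DMSO 1 to 3, against 167, 137 and 168 CPM across Yoda1 4 to 6. Only Yoda1 5 lay within the DMSO range, and the change was 0.28 (SE 0.13, adjusted p = 0.379 by edgeR's quasi-likelihood test). Mvd, the mevalonate diphosphate decarboxylase gene, read 66.2, 56.3 and 68.8 CPM across DMSO 1 to 3, against 74.5, 94.9 and 72.3 CPM across Yoda1 4 to 6, so that its groups did not overlap; it did not pass (adjusted p = 0.379 by edgeR's quasi-likelihood test). Values of Mvd are shown because of this position beside Idi1, chosen after they were seen. Hmgcs1, the HMG-CoA synthase gene, Mvk, the mevalonate kinase gene, and Pmvk, the phosphomevalonate kinase gene, had changes of -0.17, -0.14 and -0.14, and their groups overlapped. For all 7 genes the 95% interval lay within 2-fold.

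From squalene to cholesterol, none of 11 genes passed, and none had an unadjusted p under 0.05 in edgeR, DESeq2 calling 0 and voom 0. The changes ran from -0.49 to 0.20, 9 negative and 2 positive, with a median of -0.20. Tm7sf2, a sterol C14 reductase gene with low counts, read 12.03, 13.3 and 12.2 CPM across DMSO 1 to 3, against 8.84, 10.2 and 7.76 CPM across Yoda1 4 to 6. It was the one gene of this role whose groups did not overlap, with a change of -0.49 (SE 0.26, Benjamini-Hochberg adjusted p = 0.434 by edgeR's quasi-likelihood test). Cyp51, the lanosterol demethylase gene, read 129, 150.4 and 146 CPM across DMSO 1 to 3, against 137, 109 and 117 CPM across Yoda1 4 to 6; Yoda1 4 lay within the DMSO range. Lss, which encodes the cyclase that makes lanosterol, read 96.4, 84.0 and 107 CPM across DMSO 1 to 3, against 71.7, 95.6 and 72.6 CPM across Yoda1 4 to 6, with Yoda1 5 inside the DMSO range. The change was -0.23 (SE 0.13) for Cyp51 and -0.26 (SE 0.16) for Lss, neither past the threshold (adjusted p = 0.464 and 0.52 by edgeR's quasi-likelihood test).

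Other enzymes of this stretch differed little between groups or spread widely within one. Ebp, the sterol isomerase gene, averaged 147 ± 6 CPM under DMSO and 136 ± 6 CPM under Yoda1, and Msmo1, the methyl sterol oxidase gene, at 86.9 ± 5.7 and 82.3 ± 4.0 CPM. Sqle, the squalene epoxidase gene and a rate-limiting step, read 163, 126 and 113 CPM across DMSO 1 to 3, against 158, 85.5 and 105 CPM across Yoda1 4 to 6, so each group held both high and low libraries. Hsd17b7, a sterol ketone reductase gene, differed 2.25-fold between its highest and lowest Yoda1 library. Fdft1, which encodes squalene synthase, and Sc5d, a sterol desaturase gene, were the 2 genes with positive changes, 0.17 (SE 0.14) and 0.20 (SE 0.14). Nsdhl, which removes the C4 methyl groups together with Msmo1 and Hsd17b7, and Dhcr7, which carries out a last reduction to cholesterol, had changes of -0.12 (SE 0.19) and -0.21 (SE 0.25). Tm7sf2, Cyp51 and Fdft1 each overlap a neighbouring protein-coding gene (Vps51, Akap9 and Ctsb), as do Fdps, Mvd, Srebf1 and Acaca. Reads of such neighbours could have been counted in them, and the strand setting of the counting is not given. The overlaps of Tm7sf2 and Fdps lie on the same strand, where no strand setting could part the reads.

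**Figure D2:**
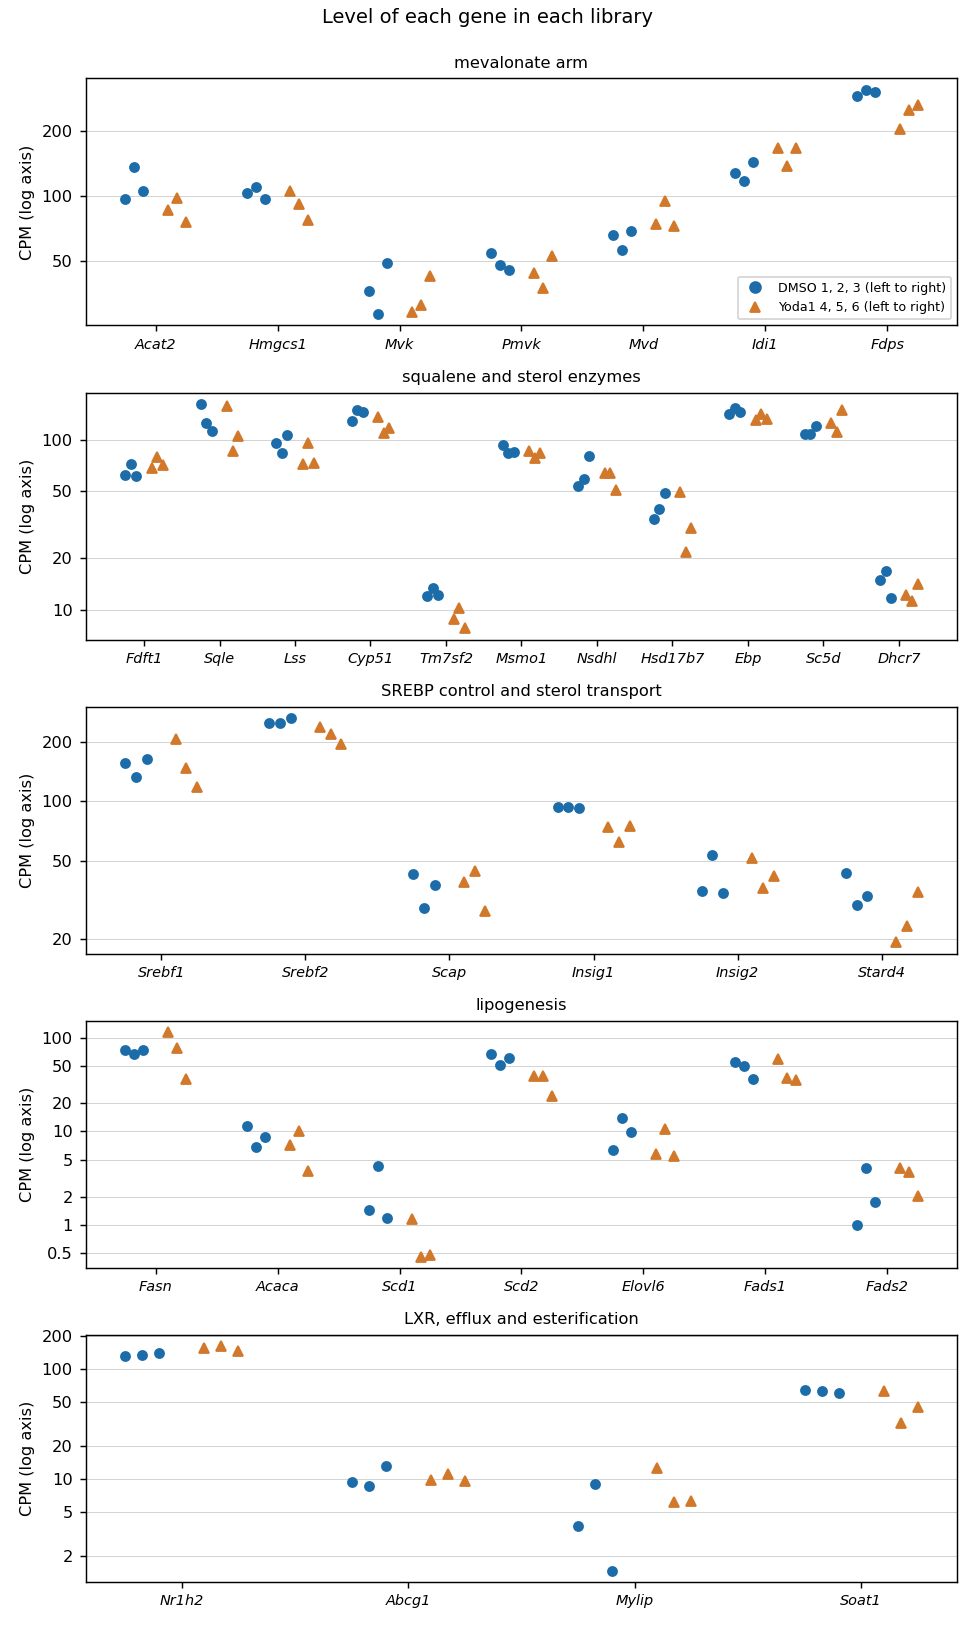
Level of each tested gene in each library, in CPM on log axes, 1 panel per role. Circles are DMSO 1, 2 and 3 and triangles Yoda1 4, 5 and 6; the Insig1 circles lie at 92.9 to 93.6 CPM with all triangles below them, while the Fasn triangles run from 36.2 to 116 CPM around the DMSO circles.

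Among the genes that control SREBP and carry sterol, none of 6 passed, and Insig1 alone was lower at an unadjusted p under 0.05 in edgeR; 3 changes were negative and 3 positive, with a median of -0.10. Insig1, which holds SCAP and SREBP back and is itself a well-known SREBP target, was at 93.6, 93.1 and 92.9 CPM in DMSO 1, 2 and 3. It was at 74.3, 62.2 and 74.8 CPM in Yoda1 4, 5 and 6, under every DMSO library. The change was -0.40 (SE 0.13, 95% interval -0.70 to -0.11); it did not pass with edgeR (Benjamini-Hochberg adjusted p = 0.195, quasi-likelihood fit), and DESeq2 gave an adjusted p of 0.0512. Insig1 lies on chromosome 5 at 28071363 to 28078662 (GRCm38). Its paralog Insig2 averaged 40.7 ± 10.8 CPM under DMSO and 43.2 ± 7.7 CPM under Yoda1.

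Srebf2, which encodes the SREBP that drives sterol enzymes, read 251, 251 and 266 CPM across DMSO 1 to 3, against 239, 221 and 195 CPM across Yoda1 4 to 6. Every Yoda1 library lay below every DMSO library, and the change was -0.23 (SE 0.11, adjusted p = 0.368 by edgeR's quasi-likelihood test). Srebf1, which encodes the lipogenic SREBP-1, averaged 151 ± 16 CPM under DMSO and 159 ± 46 CPM under Yoda1. The library Yoda1 4 was the highest of the 6 for Srebf1, at 209 CPM, and Yoda1 6 the lowest, at 119 CPM. Scap was at 36.3 ± 7.2 and 37.1 ± 8.6 CPM. Stard4, a cytosolic sterol carrier gene, read 43.4, 29.9 and 32.9 CPM across DMSO 1 to 3, against 19.2, 23.1 and 34.4 CPM across Yoda1 4 to 6. Its change was -0.47 (SE 0.26, adjusted p = 0.467 by edgeR's quasi-likelihood test), and Yoda1 6 lay within the DMSO range.

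None of the 7 lipogenesis genes passed in edgeR; 5 changes were negative and 2 positive, with a median of -0.36, and the 95% interval lay within 2-fold for 2 of them (Fasn and Fads1). The gene with the smallest p of all 35 was Scd2. This gene encodes a stearoyl-CoA desaturase, which turns saturated into monounsaturated fatty acids. It read 67.5, 51.3 and 61.0 CPM across DMSO 1 to 3, against 39.6, 38.9 and 24.0 CPM across Yoda1 4 to 6, so that every Yoda1 library lay under every DMSO library. The change was -0.81 (SE 0.23, 95% interval -1.32 to -0.30). It did not pass with edgeR (Benjamini-Hochberg adjusted p = 0.132, quasi-likelihood fit) or voom (adjusted p = 0.103). It passed with DESeq2 (adjusted p = 0.0176) and in edgeR among genes with at least 10 CPM in 3 libraries (adjusted p = 0.0412). Under that filter 158 genes were called higher and 290 lower in all, and the share of genes called was not computed. With DMSO 1 as the sole control the change was -0.99; there the spread came from the Yoda1 libraries alone, and edgeR called 0 genes of the whole table in either direction, so that fit gives a value and no test.

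Scd1, the other stearoyl-CoA desaturase gene of the list, was near the lower limit of detection, with 26, 135 and 17 counts across DMSO 1 to 3 and 18, 8 and 8 counts across Yoda1 4 to 6. The highest value, in DMSO 2, was 4.26 CPM, and DMSO 3 and Yoda1 4 lay next to each other at 1.20 and 1.16 CPM. Its change was -1.72 with an SE of 0.78 and an interval from -3.50 to 0.06 (adjusted p = 0.358 by edgeR's quasi-likelihood test). Scd1 and Scd2 are neighbours on chromosome 19, at 44394455 to 44407879 and 44293674 to 44306864 (GRCm38), and as similar paralogs could exchange reads, depending on how the authors counted.

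Chain building and desaturation otherwise showed wide spread. Fasn, the fatty acid synthase gene, was at 73.7, 67.2 and 73.9 CPM with DMSO, a narrow range, and at 116, 77.6 and 36.2 CPM in Yoda1 4, 5 and 6. The Yoda1 libraries thus lay on both sides of the DMSO libraries and differed 3.20-fold among themselves. The change of Fasn was 0.10 (SE 0.34); it was -0.33 without Yoda1 4 and 0.43 without Yoda1 6, neither past the threshold (adjusted p = 0.673 and 0.286 by edgeR's quasi-likelihood test). Acaca, which encodes the acetyl-CoA carboxylase that makes malonyl-CoA, was highest among the Yoda1 libraries in Yoda1 5, at 10.2 CPM, and lowest in Yoda1 6, at 3.82 CPM. Elovl6, a fatty acid elongase gene, read 6.40, 14.04 and 9.98 CPM across DMSO 1 to 3, against 5.68, 10.6 and 5.49 CPM across Yoda1 4 to 6, overlapping groups with a change of -0.49 (SE 0.41). Fads1 and Fads2, the delta-5 and delta-6 desaturase genes of polyunsaturated fatty acids, differed in level: Fads1 was at 47.01 ± 9.89 and 44.4 ± 13.6 CPM and Fads2 at 2.29 ± 1.62 and 3.26 ± 1.08 CPM.

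Lung alveolar type II cells make much fatty acid, and some of their markers were found here. Among these, the surfactant genes were higher on average with DMSO. The summed level of the 6 of 8 markers found in the table ran from 38.1 to 43.9 CPM of all counts with DMSO and from 16.8 to 22.9 CPM with Yoda1. The difference lay in the surfactant genes Sftpa1, Sftpc and Sftpd. Napsa ran from 7.53 to 14.8 CPM with DMSO and from 9.93 to 14.6 CPM with Yoda1, Abca3 from 2.88 to 9.72 and from 2.98 to 10.7 CPM, and Lamp3 was under 0.5 CPM in every library. Sftpa1 read 3.78, 21.4 and 21.6 CPM of all counts across DMSO 1 to 3 and at most 0.924 CPM with Yoda1. Sftpc read 15.3 CPM of all counts in DMSO 1, 0.569 in DMSO 2, 0 in DMSO 3, and at most 0.289 CPM with Yoda1, and Sftpd was at 0 in every Yoda1 library and in DMSO 1. The part of such cells in the values of Scd1 and Scd2 was not tested.

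Genes of sterol sensing by LXR, efflux and esterification made up the last role; none of its 4 tested genes passed, and none had an unadjusted p under 0.05 in edgeR, with DESeq2 and voom calling 0. The changes were positive for 2 and negative for 2, with a median of 0.08. Nr1h2, which encodes LXR beta, read 133, 133 and 139.5 CPM across DMSO 1 to 3, against 155, 162 and 147 CPM across Yoda1 4 to 6. All Yoda1 libraries lay above all DMSO libraries, with a change of 0.19 (SE 0.11, Benjamini-Hochberg adjusted p = 0.446 by edgeR's quasi-likelihood test). Soat1, whose product stores cholesterol as esters, read 64.1, 63.1 and 60.8 CPM across DMSO 1 to 3, against 62.9, 32.1 and 45.2 CPM across Yoda1 4 to 6. Yoda1 5 and Yoda1 6 lay under the DMSO range and Yoda1 4 within it; the change was -0.42 (SE 0.23, adjusted p = 0.454 by edgeR's quasi-likelihood test).

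The LXR targets of this role were low in these cells. Abca1, the exporter gene, had 4, 0 and 17 counts across DMSO 1 to 3 and 5, 26 and 0 counts across Yoda1 4 to 6, too few for the test. Where it was 0, counting error alone leaves room for 0.0949 CPM in DMSO 2 and for 0.175 CPM in Yoda1 6. Abcg1, its partner in efflux, averaged 10.5 ± 2.3 CPM under DMSO and 10.2 ± 0.8 CPM under Yoda1. Mylip, which encodes the ligase that LXR uses to remove lipoprotein receptors, read 3.75, 9.02 and 1.49 CPM across DMSO 1 to 3, against 12.7, 6.17 and 6.33 CPM across Yoda1 4 to 6. DMSO 2 lay among the Yoda1 libraries, and its change of 0.80 had an SE of 0.62 (adjusted p = 0.607 by edgeR's quasi-likelihood test). Markers of macrophages, which export much sterol, were low as well: the 5 of 10 found in the table summed to 10.7 to 13.6 CPM of all counts with DMSO and to 19.0 to 24.1 CPM with Yoda1, mostly Lyz2 and Cd68. Of these, Adgre1 was at 0 in every Yoda1 library, and the part of such cells in these values was not tested.

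Set per length of exon, the level was highest for Fdps, at 209 ± 7 CPM per kb with DMSO and 165 ± 22 CPM per kb with Yoda1. Ebp followed at 84.3 ± 3.6 and Nr1h2 at 67.3 ± 2.0 CPM per kb with DMSO, and each of these 3 kept its rank with Yoda1. Srebf2, Sqle, Acat2, Idi1 and Msmo1 came next in DMSO, from 50.5 down to 42.5 CPM per kb, and Sqle and Acat2, with SDs of 9.4 and 8.3 CPM per kb, did not differ from these neighbours beyond their spread. With Yoda1 Idi1 and Mvd ranked 4 and 5, from 7 and 9 with DMSO, with overlapping spreads. Lipogenic genes lay low, Scd2 at 11.0 ± 1.5, Fasn at 7.13 ± 0.38, Acaca at 0.947 ± 0.249 and Scd1, the lowest of the 35, at 0.476 ± 0.352 CPM per kb with DMSO. Of these 2 desaturase genes, Scd2 thus had the higher level per kb in DMSO, as far as reads were assigned to the right paralog.

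**Figure D3:**
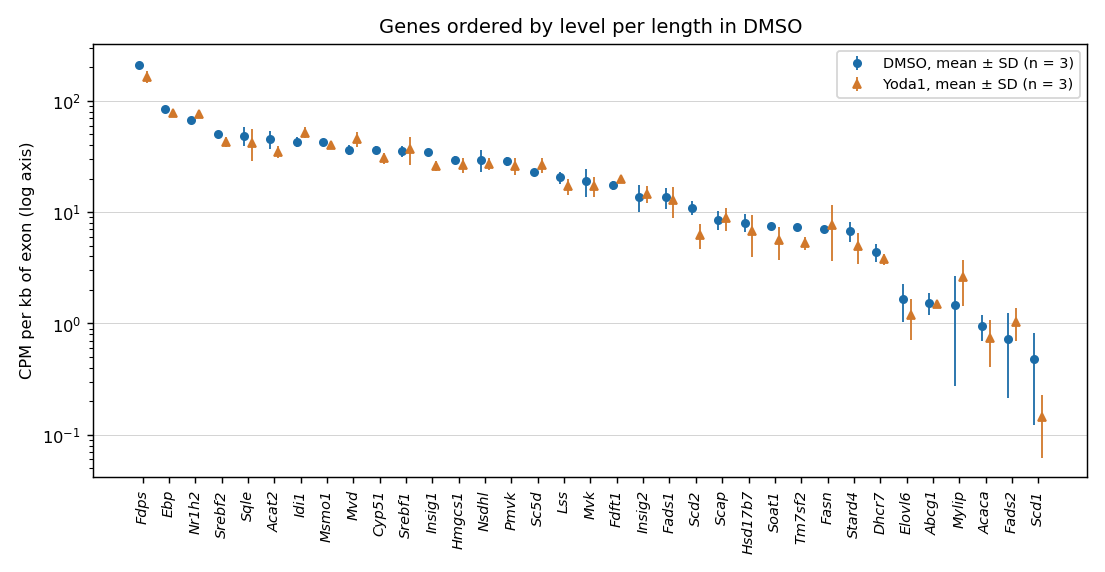
Level per kb of exon of the 35 tested genes on a log axis, ordered by their mean in DMSO. Points are means and bars SDs over 3 libraries, circles for DMSO and triangles for Yoda1. Fdps is the highest at 209 CPM per kb and Scd1 the lowest at 0.476 CPM per kb in DMSO.

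Summed by role, levels differed less between groups than those of cell cycle genes, which dividing cells share with membrane synthesis. The 18 enzymes of the mevalonate arm and of sterol synthesis together summed to 1698, 1716 and 1736 CPM of all counts across DMSO 1 to 3, and to 1637, 1549.7 and 1556 CPM across Yoda1 4 to 6. The Yoda1 mean of this sum was 92.1% of the DMSO mean. Lipogenesis genes summed to 218, 198 and 192 CPM with DMSO and to 236, 179 and 106 CPM with Yoda1, so that Yoda1 4 was the highest and Yoda1 6 the lowest of the 6 libraries. The sum of 12 cell cycle genes was 4689, 4797 and 4703 CPM with DMSO and 3369, 2916 and 2924 CPM with Yoda1, a Yoda1 mean at 64.9% of the DMSO mean. Its part in the sterol values was not tested, and no test was made on any of these sums.

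**Figure D4:**
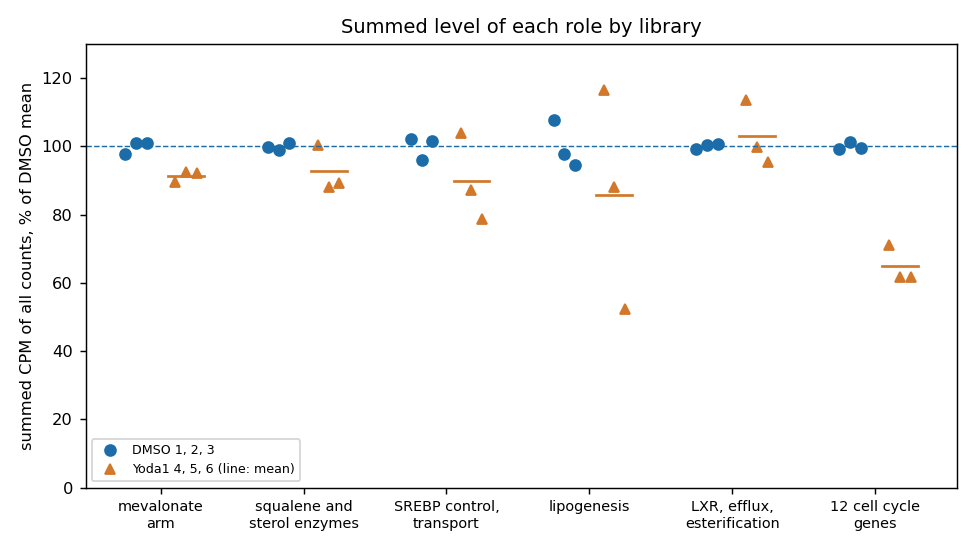
Summed level of each role in each library, in CPM of all counts as a percentage of the DMSO mean. Circles are DMSO libraries, triangles Yoda1 libraries, and lines Yoda1 means; the mevalonate arm lies at 89.5% to 92.6% with Yoda1, lipogenesis at 52.2% to 116.4%, and 12 cell cycle genes at 61.7% to 71.2%.

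The library Yoda1 6 held the lowest of all 6 values for 12 of the 35 genes and Yoda1 5 for 9. Highest values were most often in DMSO 2, for 11 genes, and DMSO 1, for 8. Such counts were not made over all tested genes. They therefore do not show whether the 35 genes differ from the rest in this. The SD of log2 CPM was larger among Yoda1 than among DMSO libraries for 23 of 35 genes, or 65.7%, near the 63.1% of all tested genes.

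A further 50 genes of the same pathways were listed by name, of which 47 were in the table and 46 were tested. They cover acetyl-CoA supply, later sterol steps, SREBP proteases, NF-Y and RXR subunits, sterol transport and fatty acid elongation. None passed in edgeR in either direction after adjustment over all genes, and 5 upward and 3 downward changes had an unadjusted p under 0.05, where this held for 7.39% and 7.11% of all tested genes. By DESeq2, 3 passed upward and 2 downward, where it called 3.03% and 3.53% of the genes it tested. By voom none passed either way. The median change of the 46 was -0.03. The groups did not overlap for 13 of 46, or 28.3%, against 22.6% of all tested genes.

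The 3 with the smallest p were Tmem97, Me1 and Hacd3. Tmem97, an SREBP target whose product binds sterol transport proteins, read 115, 109.6 and 111 CPM across DMSO 1 to 3, against 82.2, 74.8 and 80.9 CPM across Yoda1 4 to 6. Its change was -0.49 (SE 0.12, Benjamini-Hochberg adjusted p = 0.0805 by edgeR's quasi-likelihood test; DESeq2 adjusted p = 0.0011). Me1, the malic enzyme that supplies NADPH for fatty acid synthesis, read 113, 97.3 and 118 CPM across DMSO 1 to 3, against 69.8, 81.4 and 70.2 CPM across Yoda1 4 to 6. The log2 ratio was -0.57 (SE 0.14, adjusted p = 0.0868 by edgeR's quasi-likelihood test; DESeq2 adjusted p = 0.00381). Hacd3, a dehydratase gene of very long chain elongation, read 272, 310.4 and 335 CPM across DMSO 1 to 3, against 442, 389 and 403 CPM across Yoda1 4 to 6. Its change was 0.43 (SE 0.11, adjusted p = 0.0988 by edgeR's quasi-likelihood test; DESeq2 adjusted p = 0.00499). In each of these 3 genes the groups did not overlap. The other 2 that DESeq2 called higher, named after their values were seen, were Rxrb, which encodes an RXR partner of LXR, at 55.2 ± 7.6 and 82.5 ± 9.4 CPM, and Rdh11, a retinol dehydrogenase gene that SREBP is known to drive, at 46.4 ± 3.7 and 65.8 ± 5.1 CPM.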

How the data were processed

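The 6 libraries were grouped by the treatment in the sample labels. The authors deposited 1 table of expected counts (estimated, so not always whole). The reference build was mm10 per the submitters' processing notes, and Partek software is named in the deposited table's name. The sources used here name no aligner, counter, strand setting, gene models or filter. The lowest total of any gene in the table was 10. A method that divides reads between similar genes makes paralogs such as Scd1 and Scd2 uncertain.

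Counts were rounded and fitted over the whole table with edgeR 4.0.16 in R 4.3.3 (TMM factors, filterByExpr with a minimum count of 10 and a minimum total of 15, glmQLFit and glmQLFTest, no covariates, Benjamini-Hochberg adjustment over 13325 genes). The common biological coefficient of variation was 0.355. The SE is the size of the log2 change divided by the square root of F, and intervals use the fit's total (moderated) degrees of freedom. Alternatives were DESeq2 1.42.0, limma 3.58.1 (voom), other scaling and filters, the label suffix as a term, summed libraries with a shared label number, each library left out in turn, and, added after seeing the data, DMSO 1 as the sole control. The fits were run on simulated counts as a check of the code. That simulation used the same dispersion for all genes, independent libraries and large changes. It does not show how well changes of the size reported here would be found. SDs of log2 CPM used a pseudocount of 0.5. Total counts ran from 14214048 to 31627519; a count of 0 allows 3 counts of the total, which covers counting error only. No pair of libraries in a group agreed within sampling noise (chi-square over its degrees of freedom at least 18.11).

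The genes and lists were chosen with earlier results of these data known. Values in every library are given by rule for the 3 genes with the smallest p in each role and in the list of other pathway genes; those of Mvd, Sqle, Fasn, Scd1 counts and Abca1, and single library values of other genes, were added after their values were seen. Positions, exon lengths (union of exons in the basic set) and overlaps came from GENCODE M21 on GRCm38, in which all 36 symbols matched; 18 genes overlap another annotated gene and 7 a protein-coding one. Of the listed markers of other cells, 3 of 5 for T cells, 0 of 3 for B cells and 1 of 4 for endothelium and stroma were in the table. T cell markers summed to 2.88 to 4.22 CPM of all counts with DMSO and 0.462 to 2.34 CPM with Yoda1, and Pecam1 was at 20.0 to 34.3 CPM. The 10 ILC2 markers summed to 8699 to 9284 CPM with DMSO and 10217 to 11194 CPM with Yoda1, a sum made up mostly of Il5 (5343 to 5936 and 6935 to 8258 CPM).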

Additional observations from a re-analysis of the deposited data

How the results depend on the processing

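Depth and the 3 libraries per group limit what can be said of the low genes Scd1, Fads2, Elovl6, Acaca and Mylip, whose intervals reach past 2-fold. No paired analysis was possible because the label numbers 1 to 3 and 4 to 6 share none between the groups. The count of genes past the threshold was 0 higher in every alternative run and 0 lower in all but the following: it was 1 lower, Scd2, with DESeq2 and with a filter of 10 CPM in 3 libraries. Of the other pathway genes, DESeq2 called 3 higher and 2 lower, where it called 3.03% and 3.53% of all genes it tested. The filter of 10 CPM gave 2 lower. Over all genes that filter called 158 higher and 290 lower, where the reported fit called 76 and 123. The filter tests a different set of genes, with 29 of the 35 listed genes left. The share of genes called under it was not computed. The median log2 change of the listed genes ran from -0.23 to -0.10, negative in every alternative. Over all tested genes the label suffix as a term left 2 higher and 1 lower, and summed libraries left 1 and 0, so these fits had few calls of any gene. The fit with DMSO 1 as the sole control gives values and no test. Most fits with a library left out also had fewer calls than the reported fit. They were 9 and 25 without DMSO 1, 9 and 13 without DMSO 2, and 4 and 5 without DMSO 3. Without Yoda1 4, 5 and 6 in turn they were 47 and 100, 7 and 27, and 74 and 146. Few calls of listed genes in such fits are thus weak evidence.

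The sign was the same under every alternative for 24 of 35 genes and changed at least once for 11, none of which passed. The suffix was 0 for DMSO 1 and DMSO 2 and for no Yoda1 library. With the label suffix as a term, the change thus set DMSO 3 alone, which carried Scgb1a1, against Yoda1. It was 0.043 for Sqle, 0.10 for Dhcr7, -0.047 for Srebf1, -0.0093 for Scap and 0.30 for Fads1. With summed libraries, Mvk was at 0.025, Srebf1 at -0.023, Scap at -0.092, Fasn at -0.12 and Abcg1 at 0.034. DMSO 1 as the sole control gave Nsdhl 0.14, Scap -0.22, Elovl6 0.17 and Abcg1 0.095. Voom gave Fasn -0.055 and Abcg1 0.038, upper quartile scaling gave Scap -0.021, and the filter of 10 CPM gave Scap -0.0015. With libraries left out in turn, the changes ran as follows: Mvk from -0.33 to 0.079, Nsdhl from -0.23 to 0.065, Srebf1 from -0.18 to 0.24, Scap from -0.12 to 0.21, Insig2 from -0.066 to 0.33, Fasn from -0.33 to 0.43, Fads1 from -0.36 to 0.051 and Abcg1 from -0.15 to 0.15. The cause of these changes was not tested.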
